A study of Rattus norvegicus with 17 samples.

Results

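Solute carriers are membrane proteins that move amino acids, sugars, organic acids, nucleosides, metals and other small molecules into cells and between their compartments. The solute carrier genes were followed here in CD4+ T helper cells of rats fed diets with different amounts of vitamin D. They were taken as every transcript cluster whose annotation named exactly 1 gene symbol beginning with Slc and a digit, and a gene with several clusters was represented by the one with the highest mean over the 17 arrays. This gave 323 clusters of 315 genes, out of 14506 genes with a single symbol in the table. A level filter that left out the dimmest 25% of all genes kept 237 of the 315, or 75.2%, against 75.0% of all genes, and 10879 genes were tested in all. The other 78 carrier genes had means of 3.58 to 5.27 on the log2 scale and were not tested. The symbol rule also takes in Slc4a1ap and Slc7a6os, which are named after a neighbouring or binding carrier and are not carriers themselves.

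The cells came from female Dark Agouti (DA) rats, an inbred strain in which immunization with myelin oligodendrocyte glycoprotein (MOG) induces experimental autoimmune encephalomyelitis (EAE), a model of multiple sclerosis. All rats were immunized, and all were age matched. From 5 weeks before immunization until the end their feed held 0 IU of vitamin D in the deprived group of 5 arrays, 2 IU in the regular group of 6 and 10 IU in the supplemented group of 6. CD4+ T cells were sorted from inguinal lymph nodes 7 days after immunization, and total RNA of each sample was put on 1 Affymetrix whole-transcript array. The amount of feed to which the IU refer, the serum vitamin D reached and the number of rats behind an array were not stated. The labels call the arrays biological replicates and say nothing of when each was handled, so a p-value here reflects no more than how far these arrays scatter.

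An activated T cell grows and divides within days, and its uptake of amino acids, glucose and nucleosides rises with that demand. The heterodimer of CD98 (Slc3a2) with a light chain such as LAT1 (Slc7a5) brings in large neutral amino acids, glutamine enters through ASCT2 (Slc1a5) and the SNAT carriers, glucose through GLUT1 (Slc2a1), and lactate leaves through MCT1 and MCT4 (Slc16a1 and Slc16a3). The SLC25 family spans the inner mitochondrial membrane and exchanges ADP, ATP, phosphate, acylcarnitines and metabolic intermediates between the cytosol and the matrix.

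Supplemented arrays had a narrower spread of log2 values over all transcript clusters (SD of 1.908 to 1.972) than regular (2.001 to 2.063) or deprived arrays (2.027 to 2.073). Since spread and supplementation did not overlap, they cannot be told apart. Markers of the sorted cells were bright: the array means of 10 CD4 T cell markers were 10.29 to 10.49 on deprived, 10.31 to 10.51 on regular and 10.01 to 10.25 on supplemented arrays. On the supplemented diet 5 of the 10 were lower than on the regular diet (50%, against 22.9% of all genes). All 10 had log2 means of 8.74 or more, and of all genes at a level of 8 or more 50.4% were lower. Among 6 tested B cell markers 4 were higher on the supplemented than on the regular diet (66.7%, against 10.8% of all genes). Array means of the B cell list were 5.95 to 6.35 on regular and 6.15 to 6.58 on supplemented arrays. Cd79b (a log2 change of 0.20) and Cd22 (-0.49) did not pass, and Cd22 was lower on the supplemented than on the deprived diet (-0.59). Of 7 tested macrophage, monocyte and neutrophil markers 1 was higher (14.3%), with array means of 5.49 to 5.61 and 5.63 to 5.68. Summed on the linear scale, the B cell list ran from 512 to 755 on regular and 575.1 to 740.5 on supplemented arrays, and the macrophage list from 681.9 to 777.1 and 735.4 to 841.1. Stromal and endothelial markers had array means of 6.25 to 6.32 on deprived, 6.35 to 6.40 on regular and 6.41 to 6.51 on supplemented arrays, red blood cell markers 5.33 to 5.44, 5.30 to 5.56 and 5.43 to 5.62, and CD8 T and NK cell markers 6.19 to 6.36, 6.23 to 6.46 and 6.12 to 6.34. The part of these markers in the carrier results was not tested. In RNA of a sorted population, fewer cells of a type and less RNA per cell cannot be told apart.

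On the supplemented diet a small set of mostly brighter carriers was lower than on the regular diet. Among them were the mitochondrial phosphate carrier, both ADP/ATP translocases, the carnitine carrier and the sodium-potassium-chloride cotransporter Slc12a2. Mostly dim carriers of many kinds were higher by small amounts. Of the 237 carriers tested, 35 were higher (14.8%) and 19 lower (8.02%), and 183 did not pass (limma, Benjamini-Hochberg adjusted p below 0.05 over all 10879 genes). Among all genes tested 10.8% were higher and 22.9% lower. No carrier among the 54 that passed changed by more than 2-fold. The count of higher carriers fell from 35 to 22 without supplemented replicate 2 and to 23 without supplemented replicate 5. With each array centred on its median, which moves the median change of all genes by -0.0779, the split turned to 7 higher and 33 lower, although no carrier called here changed sign under centring, quantile normalization or cyclic loess. With array spread as a covariate in limma, 0 of the 237 passed, and 25 had an unadjusted p below 0.05.

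On the deprived diet 1 carrier differed from the regular diet, the amino acid carrier Slc38a2, which was higher (0.422% of carriers, against 1.49% of all genes higher). None was lower in limma (0.184% of all genes were), and 24 carriers had an unadjusted p below 0.05. Between the ends of the range, the supplemented and the deprived diet, 49 carriers were higher on the supplemented diet (20.7%, against 18.6% of all genes), 26 of the 237 were lower (11%, against 28.6% of all genes) and 162 did not pass. After centring that split was 10 higher and 47 lower. Over the 3 diets together, limma's moderated F test called 78 of 237 carriers (32.9%, against 45.3% of all genes). All these contrasts share arrays, so the calls in one are not separate evidence for another.

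**Figure D1:**
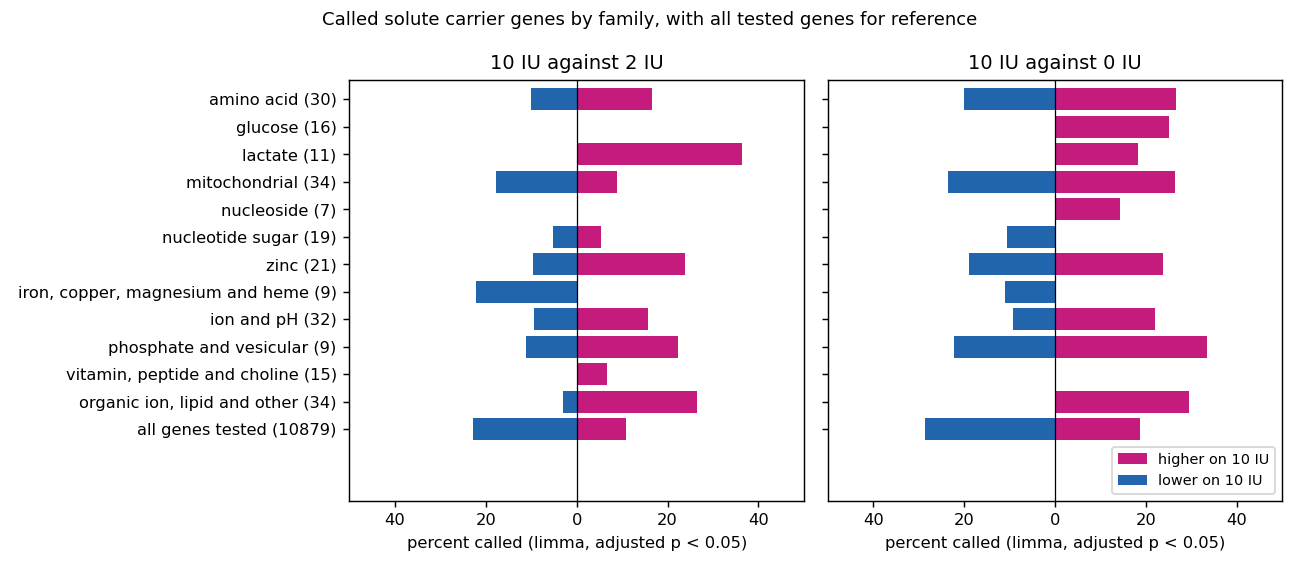
Percent of tested carriers called in limma (adjusted p below 0.05) by family, to the right for genes higher and to the left for genes lower on the 10 IU diet, against the 2 IU diet (left panel) and the 0 IU diet (right panel), with the number tested in parentheses. Against 2 IU, mitochondrial carriers had 6 lower and 3 higher of 34, the lactate group 4 higher of 11, and glucose and nucleoside carriers none; the last bar pair gives all 10879 genes.

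Mitochondrial carriers held the largest falls. Of 37 genes of the family 34 were tested, and on the supplemented diet 6 were lower than on the regular diet (17.6%, against 22.9% of all genes), 3 higher (8.82%, against 10.8%) and 25 did not pass. The 6 were Slc25a3, Slc25a4, Slc25a5, Slc25a11, Slc25a20 and Slc25a24. Higher and lower carriers differed in the median number of CG pairs near their start (described further on), as did all higher and all lower genes. For that reason the windows from 250 bases before to 50 after the annotated start of 3 of the 6 are shown here. Beside them are windows of 2 carriers from other families that rose on the same diet. They are from RefSeq for GRCr8, read 5′ to 3′ along the gene's strand, and capitals mark each CG pair. Slc25a3 lies at chr7:27506578-27506877 on the minus strand (30 CG pairs), Slc25a5 at chrX:120897366-120897665 on the plus strand (22), Slc25a20 at chr8:118243323-118243622 on the plus strand (13), Slc30a9 at chr14:41224739-41225038 on the minus strand (28) and Slc6a5 at chr1:108781303-108781602 on the plus strand (12).
Slc25a3: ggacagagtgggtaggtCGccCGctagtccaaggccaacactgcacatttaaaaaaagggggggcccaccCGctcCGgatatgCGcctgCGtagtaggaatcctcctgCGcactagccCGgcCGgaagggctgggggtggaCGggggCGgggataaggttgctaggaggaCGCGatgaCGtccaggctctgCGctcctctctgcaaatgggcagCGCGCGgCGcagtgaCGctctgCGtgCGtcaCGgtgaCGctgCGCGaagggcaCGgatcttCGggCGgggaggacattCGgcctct
Slc25a5: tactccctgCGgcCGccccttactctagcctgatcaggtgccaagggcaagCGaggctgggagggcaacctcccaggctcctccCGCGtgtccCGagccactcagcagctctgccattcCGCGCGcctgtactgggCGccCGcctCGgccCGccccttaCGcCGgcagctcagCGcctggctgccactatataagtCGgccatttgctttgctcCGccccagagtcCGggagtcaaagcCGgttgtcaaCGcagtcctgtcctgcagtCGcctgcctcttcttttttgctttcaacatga
Slc25a20: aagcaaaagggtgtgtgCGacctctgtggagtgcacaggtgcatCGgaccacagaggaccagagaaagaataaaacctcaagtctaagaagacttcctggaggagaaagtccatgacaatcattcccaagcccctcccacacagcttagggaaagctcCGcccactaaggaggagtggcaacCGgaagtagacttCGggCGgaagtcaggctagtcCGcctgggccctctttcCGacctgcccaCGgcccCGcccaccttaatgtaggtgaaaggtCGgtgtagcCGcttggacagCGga
Slc30a9: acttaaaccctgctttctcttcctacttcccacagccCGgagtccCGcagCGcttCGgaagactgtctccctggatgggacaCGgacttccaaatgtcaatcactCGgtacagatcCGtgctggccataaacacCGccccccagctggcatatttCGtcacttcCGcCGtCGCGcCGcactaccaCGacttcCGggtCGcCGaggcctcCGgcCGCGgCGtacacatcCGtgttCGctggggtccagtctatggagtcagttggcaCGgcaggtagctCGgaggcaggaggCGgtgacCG
Slc6a5: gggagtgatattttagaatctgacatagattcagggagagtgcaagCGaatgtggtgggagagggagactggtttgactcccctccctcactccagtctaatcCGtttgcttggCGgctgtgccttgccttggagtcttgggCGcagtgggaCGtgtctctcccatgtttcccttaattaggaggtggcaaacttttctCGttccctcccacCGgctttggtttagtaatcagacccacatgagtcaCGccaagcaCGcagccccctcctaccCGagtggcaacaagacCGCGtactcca

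Slc25a3 carries phosphate into the matrix for ATP synthesis. Its log2 values were 10.36, 10.36, 10.38, 10.42 and 10.51 on the 5 deprived arrays, 10.11 to 10.47 (median 10.29) on the regular arrays and 9.48 to 9.91 (median 9.76) on the supplemented arrays. Every supplemented array lay below every array of the other diets. Supplementation changed it by -0.54 from the regular diet (SE 0.08, n = 6 and 6, limma adjusted p = 1.8e-05), a ratio of 0.686 on the linear scale.

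Slc25a5 and Slc25a4 encode the ADP/ATP translocases that exchange matrix ATP for cytosolic ADP. Slc25a5 was at 9.89, 9.90, 9.96, 10.04 and 10.12 on the deprived arrays, 9.87 to 10.08 (median 9.94) on the regular and 9.08 to 9.47 (median 9.29) on the supplemented arrays. Again no supplemented array reached the other diets, and the change of -0.66 (SE 0.07, limma adjusted p = 1.13e-06) had the smallest adjusted p of all carriers. Slc25a4 was more variable, at 7.59, 7.79, 8.01, 8.30 and 8.52 on the deprived arrays, 7.45 to 8.15 (median 7.67) on the regular and 6.50 to 7.74 (median 6.85) on the supplemented arrays. It changed by -0.76 (SE 0.18, limma adjusted p = 0.00318), the largest change among the 237 carriers in this comparison, with overlap between the diets. The translocases are close in sequence, and whether probes of one also bind transcripts of the other was not tested.

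Slc25a20 brings acylcarnitines into the matrix for fatty acid oxidation. Its values were 7.13, 7.16, 7.27, 7.38 and 7.55 on the deprived arrays, 7.04 to 7.67 (median 7.30) on the regular and 6.47 to 6.96 (median 6.69) on the supplemented arrays, so the supplemented arrays again lay below all others. It changed by -0.60 (SE 0.10, limma adjusted p = 0.000135). Slc25a11, the oxoglutarate and malate exchanger of the malate-aspartate shuttle, was at 8.29, 8.38, 8.47, 8.47 and 8.61 on the deprived arrays, 8.45 to 8.86 (median 8.62) on the regular and 7.81 to 8.37 (median 8.14) on the supplemented arrays. The supplemented arrays were below every regular array, by -0.48 on average (SE 0.09, limma adjusted p = 0.000313), but overlapped the deprived ones.

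The ATP-Mg and phosphate carriers of the family did not move together. Slc25a24 was at 6.77, 6.94, 6.95, 7.23 and 7.44 on the deprived arrays, 6.01 to 7.11 (median 6.50) on the regular and 5.18 to 6.74 (median 5.99) on the supplemented arrays. It changed by -0.59 against the regular diet (SE 0.20, limma adjusted p = 0.0263). That call ended without supplemented replicate 2 (adjusted p = 0.078) or 4 (0.0515) and without regular replicate 1 (0.0771) or 2 (0.0669), and when all clusters of the table were tested (0.0521). A second, dimmer cluster annotated to Slc25a24 (mean 5.35) changed by 0.06. Its relatives Slc25a41 and Slc25a23 were higher, by 0.33 (SE 0.08, limma adjusted p = 0.00298) and 0.28 (SE 0.10, limma adjusted p = 0.0293). Slc25a41 had 5.90 to 6.08 on regular and 6.05 to 6.54 on supplemented arrays and passed under quantile normalization, cyclic loess and centring. Slc25a23 did not pass after centring (adjusted p = 0.109) or without supplemented replicate 2, 4 or 5 or regular replicate 2 or 5 (at most 0.0861). Another, dimmer cluster annotated to Slc25a23 (mean 5.95) changed by 0.06 and did not pass (limma adjusted p = 0.593 with all clusters tested). The remaining rise, of the orphan carrier Slc25a34 (0.20, SE 0.08, limma adjusted p = 0.0414), was lost without supplemented replicate 1, 2, 3 or 5 or regular replicate 1, 3 or 4 (at most 0.119) and under quantile normalization, loess and centring (at most 0.282).

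**Figure D2:**
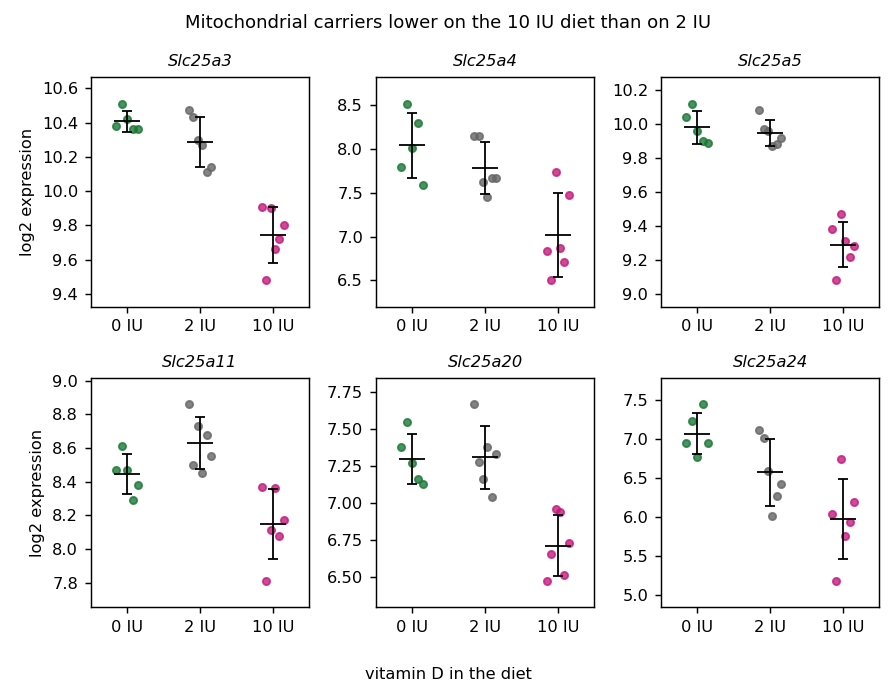
Log2 expression of the 6 mitochondrial carriers lower on the 10 IU than on the 2 IU diet; points are arrays, the horizontal line is the mean of a diet and bars are 1 SD (5, 6 and 6 arrays). For Slc25a3, Slc25a5 and Slc25a20 every 10 IU array lies below every array of the other diets, while Slc25a4 and Slc25a24 scatter widely.

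Other mitochondrial carriers of known function did not pass against the regular diet. The citrate carrier Slc25a1 was at 0.07 (SE 0.07, limma adjusted p = 0.458), the NAD carrier Slc25a51 at -0.04, the glutathione carriers Slc25a39 and Slc25a40 at -0.07 and 0.16, the iron carrier Slc25a37 at 0.10 and the glycine carrier Slc25a38 at -0.06. The folate carrier Slc25a32 was at -0.08 here and passed only against the deprived diet (-0.35, SE 0.11, limma adjusted p = 0.0104). In that wider comparison 9 mitochondrial carriers were higher (26.5%, against 18.6% of all genes) and 8 lower (23.5%, against 28.6%). The falls of Slc25a4 (-1.02, SE 0.19, limma adjusted p = 0.000234) and Slc25a24 (-1.09, SE 0.21, limma adjusted p = 0.000258) were the 2 carrier changes larger than 2-fold in any contrast. The dimmer cluster of Slc25a24 changed by -0.18 against the deprived diet and did not pass (limma adjusted p = 0.135 with all clusters tested). The peroxisomal carrier Slc25a17 was the highest riser (0.40, SE 0.10, limma adjusted p = 0.00204), with the dicarboxylate carrier Slc25a10 at 0.24 (SE 0.08), which was lost without deprived replicate 4 (adjusted p = 0.0677) and under quantile normalization (0.14, adjusted p = 0.157), loess (0.12, 0.211) and centring (0.13, 0.167).

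Amino acid carriers moved in both directions. Of 49 genes 30 were tested. Between the supplemented and regular diets 5 were higher (16.7%, against 10.8% of all genes), 3 lower (10%, against 22.9%) and 22 did not pass, with a median change of 0.039. The 3 lower include Slc7a6os, which is not a carrier itself. The CD98 heavy chain Slc3a2, which escorts several light chains to the cell surface, had 7.32, 7.46, 7.46, 7.56 and 7.59 on the deprived arrays, 7.23 to 7.63 (median 7.39) on the regular and 7.01 to 7.28 (median 7.13) on the supplemented arrays. The supplemented arrays were below all deprived ones and overlapped the regular ones at the edge. The change was -0.26 against regular (SE 0.07, limma adjusted p = 0.00832) and -0.34 against deprived (SE 0.07, limma adjusted p = 0.000809).

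The light chains of CD98 had other values. LAT1, Slc7a5, spanned 5.92 to 6.74 on the supplemented and 6.28 to 6.88 on the regular arrays and did not pass (-0.13, SE 0.12, limma adjusted p = 0.428). The light chain y+LAT2, Slc7a6, was higher, with 8.36, 8.37, 8.40, 8.46 and 8.49 on the deprived arrays, 8.20 to 8.54 (median 8.40) on the regular and 8.47 to 8.84 (median 8.62) on the supplemented arrays (0.23, SE 0.07, limma adjusted p = 0.016, and 0.117 after centring). Slc7a6os, a gene named as lying on the opposite strand of Slc7a6, went the other way (-0.26, SE 0.08, limma adjusted p = 0.0129). The light chain Slc7a7 was at 0.14 (SE 0.07, limma adjusted p = 0.134). The cystine carrier Slc7a11 was below the level filter. The other fall was of the amino acid carrier Slc36a4 (-0.30, SE 0.10, limma adjusted p = 0.0206), which was lost without supplemented replicate 2 or 5 (at most 0.0596).

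Slc38a2, the SNAT2 carrier of small neutral amino acids, was the single carrier that passed between the deprived and regular diets. Its values were 9.92, 10.03, 10.06, 10.13 and 10.21 on the deprived arrays, 9.46 to 9.99 (median 9.71) on the regular and 9.57 to 9.88 (median 9.76) on the supplemented arrays. All deprived arrays lay above all supplemented arrays, and 1 deprived array fell within the regular range. The change was 0.36 against the regular diet (SE 0.08, n = 5 and 6, limma adjusted p = 0.0292), and the supplemented diet differed from the regular by 0.04 (SE 0.08). The deprivation call did not hold without deprived replicate 2 (adjusted p = 0.0808), 4 (0.0743) or 6 (0.0779) or without regular replicate 2 (0.0603), 4 (0.0517), 5 (0.0708) or 6 (0.0751). It was also lost after quantile normalization (0.0878) and cyclic loess (0.0551).

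Between the supplemented and deprived diets 8 of the 30 amino acid carriers were higher (26.7%, against 18.6% of all genes). The 6 lower (20%, against 28.6%) include Slc7a6os. Slc1a2 (0.23), Slc1a6 (0.24) and Slc7a10 (0.17) were higher in this contrast only. All were lost under quantile normalization, loess and centring and without certain single arrays. Slc38a1 and Slc1a5 were lower in this contrast only. Slc38a1 (SNAT1) was at 10.05, 10.06, 10.11, 10.28 and 10.31 on the deprived and 9.46 to 10.15 on the supplemented arrays (-0.33, SE 0.10, limma adjusted p = 0.0117), against -0.21 (SE 0.10, limma adjusted p = 0.0965) from the regular diet. The Slc38a1 call ended under quantile normalization (-0.08, adjusted p = 0.518), cyclic loess (-0.08, 0.502) and without supplemented replicates 2 and 5 (-0.17, 0.115). ASCT2, Slc1a5, differed by -0.20 (SE 0.08, limma adjusted p = 0.0368), a call that was lost without supplemented replicate 5 or 6 or without deprived replicate 2, 3, 4 or 5 (at most 0.0945) and under quantile normalization (0.0849) or loess (0.0828). The cationic amino acid carrier Slc7a1 did not pass in any contrast (-0.18, SE 0.08, limma adjusted p = 0.102 against regular), nor did the lysosomal arginine sensor Slc38a9 (0.03, SE 0.07) or the lysosomal carrier Slc36a1 (-0.02, SE 0.08).

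Besides Slc7a6, the rises against the regular diet were in dimmer genes. Slc6a5, a glycine carrier known from neurons, was at 5.51, 5.52, 5.61, 5.68 and 5.76 on the deprived arrays, 5.49 to 5.76 (median 5.65) on the regular and 5.78 to 6.03 (median 5.96) on the supplemented arrays. All supplemented arrays were above all others, by 0.30 over the regular mean (SE 0.07, limma adjusted p = 0.00135). Slc7a4 was higher by 0.25 (SE 0.07, limma adjusted p = 0.00919), Slc38a3 by 0.22 and Slc6a17 by 0.16. Slc6a5 and Slc7a4 passed under every scaling tried, and Slc38a3 and Slc6a17 passed under none and were also lost without supplemented replicate 5 or regular replicate 1, Slc38a3 besides without supplemented replicate 2 or 6 or regular replicate 2.

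**Figure D3:**
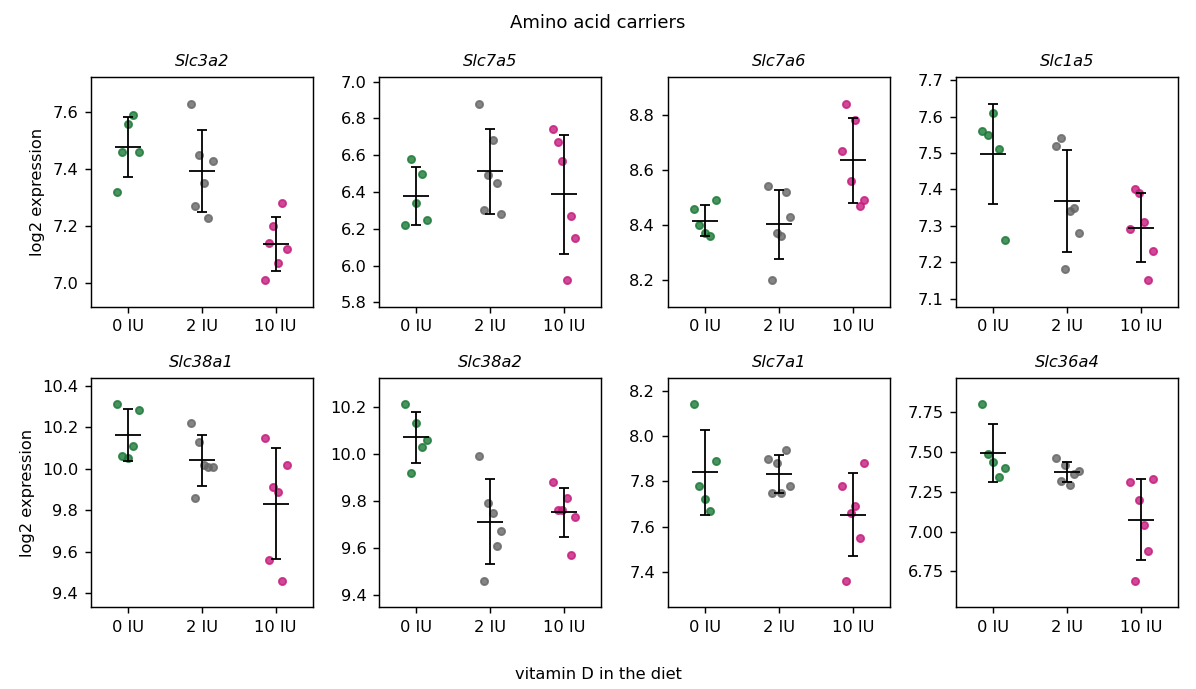
Log2 expression of 8 amino acid carriers by diet; points are arrays, the horizontal line is the mean of a diet and bars are 1 SD (5, 6 and 6 arrays). Slc3a2 is lowest and Slc7a6 highest on 10 IU, Slc38a2 is highest on 0 IU, and Slc7a5 overlaps across all diets.

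Glucose carriers did not pass against the regular diet in either direction: 16 of 20 genes were tested, and 0 were higher and 0 lower in limma on the supplemented or on the deprived diet (5 and 2 had an unadjusted p below 0.05). Of all genes 33.7% passed on the supplemented and 1.67% on the deprived diet. GLUT1, Slc2a1, the main glucose carrier of activated T cells, was at 7.86, 8.06, 8.09, 8.12 and 8.31 on the deprived arrays, 7.95 to 8.23 (median 8.09) on the regular and 7.66 to 8.09 (median 7.93) on the supplemented arrays. The diets overlapped, and its change was -0.17 (SE 0.08, limma adjusted p = 0.0945). GLUT3, Slc2a3, was at -0.05 (SE 0.09) and the glucose-6-phosphate carrier Slc37a4 at 0.06 (SE 0.06). Against the deprived diet 4 were higher (25%, against 18.6% of all genes) and 0 lower (against 28.6% of all genes). The 4 were Slc2a10 (0.37, SE 0.09, limma adjusted p = 0.002), the sugar carrier Slc50a1 (0.29, SE 0.10), the kidney glucose carrier Slc5a2 (0.17, SE 0.05) and Slc45a3 (0.20, SE 0.07). Slc2a10 was the one of the 4 that passed under every scaling, and Slc50a1 was lost without deprived replicate 5 or 6 (at most 0.0644) and Slc45a3 without deprived replicate 3 or 6 or supplemented replicate 2 or 4 (at most 0.0836).

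Monocarboxylate and related carriers were tested in 11 of 16 genes. On the supplemented against the regular diet 4 were higher (36.4%, against 10.8% of all genes), 0 lower (against 22.9% of all genes) and 7 did not pass. The 11 were dim, with a median level of 5.96. Below a level of 6, 18.2% of all genes were higher and 1.87% lower, and at 6 to 7, 16.1% and 6.86%. MCT1, Slc16a1, did not pass (-0.13, SE 0.11, limma adjusted p = 0.343), with 6.36 to 7.33 on the supplemented arrays around the regular range of 6.82 to 7.01. MCT4, Slc16a3, which exports lactate from glycolytic cells, had 6.12, 6.16, 6.16, 6.18 and 6.38 on the deprived arrays, 5.86 to 6.27 (median 6.05) on the regular and 6.13 to 6.50 (median 6.34) on the supplemented arrays. It was higher by 0.26 (SE 0.07, limma adjusted p = 0.00968) with overlapping arrays, and missed the threshold after cyclic loess (adjusted p = 0.0602). The other rises were of Slc16a8 (0.27, SE 0.08), Slc16a4 (0.21, SE 0.06) and the sulfate carrier Slc13a4 (0.18, SE 0.06), and Slc13a4 was lost without supplemented replicate 6 or regular replicate 5 (at most 0.0552). None of these 3 passed after quantile normalization, loess or centring. Basigin, Bsg, the membrane partner that MCT1 and MCT4 need at the cell surface, was lower (-0.36, SE 0.07, limma adjusted p = 0.000776). Slc16a7 was below the level filter.

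All 7 nucleoside carriers were tested, and 0 passed against the regular diet in limma, nor did any have an unadjusted p below 0.05 there. Among all genes 33.7% passed on the supplemented and 1.67% on the deprived diet. The equilibrative carriers Slc29a1, Slc29a2 and Slc29a3 were at 0.07 (SE 0.07), -0.03 (SE 0.06) and -0.04 (SE 0.07) for the supplemented diet. Slc29a1 was at 6.79, 6.82, 6.96, 7.00 and 7.04 on the deprived arrays, 6.86 to 7.10 (median 6.99) on the regular and 6.86 to 7.21 (median 7.11) on the supplemented arrays. The concentrative carrier Slc28a3 passed against the deprived diet (0.22, SE 0.08, limma adjusted p = 0.0376) and was lost without deprived replicate 2 or 4 or supplemented replicate 2, 4, 5 or 6 (at most 0.103), and under quantile normalization (0.10, adjusted p = 0.347), loess (0.09, 0.415) and centring (0.12, 0.262).

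Between the supplemented and regular diets 5 of 21 tested zinc carriers were higher (23.8%, against 10.8% of all genes) and 2 lower (9.52%, against 22.9%). The other 14 did not pass. Slc30a9, a zinc carrier of mitochondria, had the largest rise among the 3 higher carriers with a level of 8 or more. It was at 9.56, 9.66, 9.72, 9.77 and 9.79 on the deprived arrays, 9.47 to 9.63 (median 9.55) on the regular and 9.70 to 10.12 (median 9.84) on the supplemented arrays. Every supplemented array was above every regular array, the change was 0.32 (SE 0.07, limma adjusted p = 0.00138), and it passed under every scaling. The Golgi zinc carrier Slc30a7 was higher by 0.22 (SE 0.07, limma adjusted p = 0.017, and 0.145 after centring), and the plasma membrane exporter Slc30a1 by 0.22 (SE 0.07, limma adjusted p = 0.0259), which was lost without supplemented replicate 1, 2 or 5 or regular replicate 3 or 6 (at most 0.071) and under each of quantile normalization, loess and centring (at most 0.15). The importer Slc39a6 changed by -0.23 (SE 0.08, limma adjusted p = 0.0363). Its call was lost after quantile normalization (adjusted p = 0.26) and without supplemented replicate 2 or 5 or regular replicate 1 or 3 (at most 0.0971). Slc39a4 (0.25), Slc39a5 (0.16) and Slc30a6 (-0.27) made up the rest of the 7. Slc39a4 and Slc39a5 did not pass after quantile normalization, loess or centring (at most 0.253). They were also lost without supplemented replicate 2 or 5 or regular replicate 1 or 3 (at most 0.0874), Slc39a5 also without regular replicate 2, and Slc30a6 without supplemented replicate 2, 4 or 6 or regular replicate 1 or 6 (at most 0.0808). Between the supplemented and deprived diets 5 zinc carriers were higher (23.8%, against 18.6% of all genes) and 4 lower (19%, against 28.6%). The 5 were Slc30a10 (0.34), Slc39a4 (0.27), Slc30a3 (0.23), Slc39a5 (0.20) and Slc30a2 (0.19). None of these passed under all of quantile normalization, loess and centring. Slc39a6 was at -0.37 (SE 0.09, limma adjusted p = 0.00135) and Slc30a6 at -0.32. The importers Slc39a14 (-0.36, SE 0.09) and Slc39a8 (-0.27, SE 0.09, lost without deprived replicate 2 at 0.057) were lower too.

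Among ion carriers Slc12a2, the cotransporter NKCC1 of sodium, potassium and chloride that acts in cell volume control, was ordered from the deprived over the regular to the supplemented diet. It was at 7.81, 7.89, 7.94, 7.98 and 8.17 on the deprived arrays, 7.49 to 7.70 (median 7.60) on the regular and 6.94 to 7.69 (median 7.01) on the supplemented arrays. All deprived arrays were above all others, and 5 of 6 supplemented arrays, at 6.94 to 7.17, were below all regular ones. The supplemented diet differed by -0.48 from the regular (SE 0.10, limma adjusted p = 0.000878) and by -0.83 from the deprived diet (SE 0.10, limma adjusted p = 2.32e-06). The difference of 0.35 between deprived and regular did not pass over all genes (SE 0.10, limma adjusted p = 0.0839). Of the 32 ion and pH carriers tested 5 were higher (15.6%, against 10.8% of all genes) and 3 lower (9.38%, against 22.9%) on the supplemented than on the regular diet. The other falls were of the anion exchanger Slc26a6 (-0.23, SE 0.06, limma adjusted p = 0.00607) and the adaptor gene Slc4a1ap (-0.54, SE 0.09, limma adjusted p = 0.000116), which is no carrier.

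Among all genes 10.8% were higher and 22.9% lower on the supplemented than on the regular diet. Iron, copper, magnesium and heme carriers had 0 higher and 2 lower of 9 (22.2%). Phosphate and vesicular carriers had 2 higher (22.2%) and 1 lower (11.1%) of 9. Nucleotide sugar carriers had 1 higher and 1 lower of 19 (5.26% each). Vitamin, peptide and choline carriers had 1 higher (6.67%) and 0 lower of 15. The rises, of Slc17a2, Slc17a9, Slc35e4 and Slc23a1, did not pass under quantile normalization, loess or centring. The copper importer Slc31a1 was at 7.05, 7.13, 7.17, 7.28 and 7.39 on the deprived arrays, 7.06 to 7.23 (median 7.15) on the regular and 6.38 to 7.33 (median 6.56) on the supplemented arrays, with 1 supplemented array above the regular range (-0.43, SE 0.12, limma adjusted p = 0.00669). The magnesium carrier Slc41a3 changed by -0.20 (SE 0.07), a call lost under quantile normalization (adjusted p = 0.384) and without supplemented replicate 5 or regular replicate 3 or 4 (at most 0.0731). Sialin, Slc17a5, the lysosomal exporter of sialic acid, was lower on every supplemented array (6.51 to 6.92) than on any regular array (6.96 to 7.07), by -0.28 (SE 0.07, limma adjusted p = 0.00449). The acetyl-CoA carrier Slc33a1 of the endoplasmic reticulum was at -0.31 (SE 0.11, limma adjusted p = 0.0298), and did not pass after quantile normalization (0.266) or without supplemented replicate 2, 4 or 5 or regular replicate 1, 2 or 3 (at most 0.0821). The phosphate importer Slc20a1 passed only against the deprived diet (-0.30, SE 0.07, limma adjusted p = 0.00267), and not under quantile normalization (-0.05, adjusted p = 0.588) or loess (-0.06, 0.518). The brightest carrier of all, the choline carrier-like gene Slc44a2, was at 10.88 to 11.02 on regular and 10.89 to 11.12 on supplemented arrays and did not pass in any contrast.

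Carriers of organic ions, lipids and other substrates, several of them known from kidney, liver or brain, were tested in 34 genes. On the supplemented against the regular diet 9 were higher (26.5%, against 10.8% of all genes), 1 lower (2.94%, against 22.9%) and 24 did not pass. Their median change was 0.148 and their median level 6.05. Of all genes below a level of 6, 18.2% were higher, with a median change of 0.11, and of those at 6 to 7, 16.1%, with 0.0743. Slc22a20 rose on every supplemented array above the regular ones (6.49 to 6.88 against 6.17 to 6.49, apart beyond the second decimal, a change of 0.31, SE 0.07, limma adjusted p = 0.00156), and Slc10a6 (0.28, SE 0.07, limma adjusted p = 0.00643) and the drug and toxin exporter Slc47a2 (0.20, SE 0.06, limma adjusted p = 0.0135) were higher too. Of these 3, Slc22a20 passed under every scaling. The fall was of Slc22a13 (-0.25, SE 0.09, limma adjusted p = 0.0482), with a mean of 5.36 near the filter, and each of 11 single arrays left out ended that call (adjusted p at most 0.118).

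**Figure D4:**
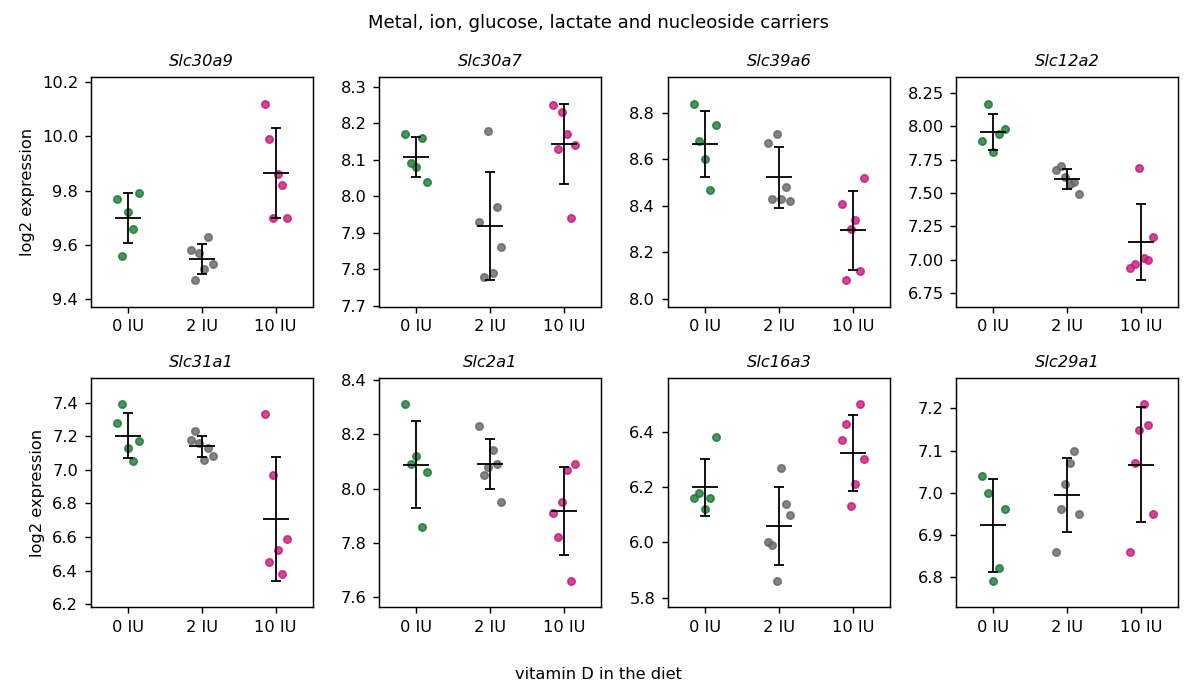
Log2 expression of 8 carriers of metals, ions, glucose, lactate and nucleosides by diet; points are arrays, the horizontal line is the mean of a diet and bars are 1 SD (5, 6 and 6 arrays). Slc30a9 is above every 2 IU array on 10 IU, Slc12a2 falls from 0 to 10 IU with 1 supplemented array apart at 7.69, and Slc2a1 and Slc29a1 overlap.

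The direction of change went with the signal level of the gene. Higher carriers had a median level of 6.10 and lower ones of 7.33 on the log2 scale (means over all arrays), and 30 of the 35 higher carriers but 5 of the 19 lower ones were below 7. Below a level of 6, 15 carriers were higher and 1 lower of 63 (23.8% and 1.59%, against 18.2% and 1.87% of all genes in that range). At 6 to 7, 15 were higher and 4 lower of 94 (16% and 4.26%, against 16.1% and 6.86% of all genes there). The median levels of amino acid (6.38), glucose (6.40), ion and pH (6.41) and zinc carriers (6.87) lay in that range. At a level of 8 or more, 3 were higher and 7 lower of 33 (9.09% and 21.2%, against 4.05% and 50.4% of all genes there). Across genes, which are not independent replicates and share the same arrays, the change correlated with the level at -0.391 in carriers and -0.505 in all genes. The part of signal level and array spread in the carrier calls was not tested further.

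Groups that did not overlap were few. In 7 carriers all supplemented arrays were above all regular arrays (2.95%, against 2.22% of all genes), and in 6 all were below (2.53%, against 9.92%). The 7 were Slc6a5, Slc6a17, Slc22a20, Slc22a23, Slc23a1, Slc30a9 and Slc47a2, and the 6 were Slc25a3, Slc25a5, Slc25a11, Slc25a20, Slc17a5 and Slc4a1ap. Leaving out any 1 of the 17 arrays kept the call in 17 of the 35 higher and 12 of the 19 lower carriers. Under all of quantile normalization, cyclic loess and centring 5 higher carriers passed (Slc6a5, Slc7a4, Slc22a20, Slc25a41 and Slc30a9), as did 16 lower ones, those other than Slc33a1, Slc39a6 and Slc41a3. Without supplemented replicates 2 and 5, the arrays with the smallest spread, 24 carriers passed in all. Among those no longer passing then were Slc7a4 (adjusted p = 0.0902), Slc7a6os (0.126), Slc16a3 (0.0853), Slc25a24 (0.174), Slc31a1 (0.0801) and Slc36a4 (0.198). The diet means ran downward from 0 over 2 to 10 IU in 38 of 237 carriers (16%, against 29.8% of all genes), upward in 80 (33.8%, against 30.1%) and in neither order in 119, which is a description without a test.

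**Figure D5:**
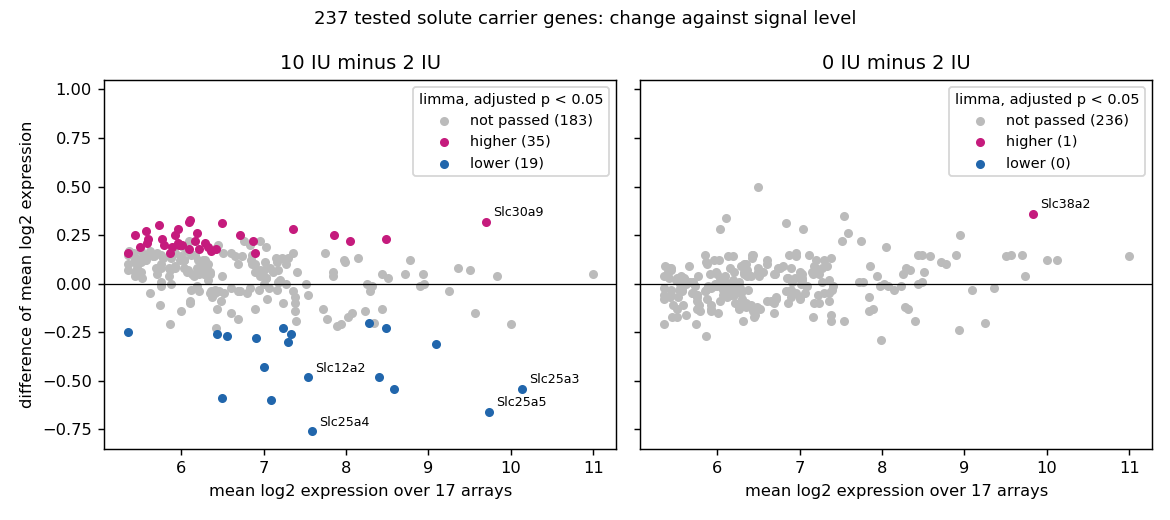
Difference of mean log2 expression against mean level over the 17 arrays for the 237 carriers tested, for 10 IU minus 2 IU (left) and 0 IU minus 2 IU (right), coloured by limma's call (adjusted p below 0.05). The 35 higher carriers lie mostly at levels below 7 and the 19 lower ones mostly above, and on the right Slc38a2 is the single call.

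Genes that act with the carriers were counted in the same way. Of 36 partners and regulators of carriers 32 were tested, and 9 were lower (28.1%, against 22.9% of all genes), 1 higher (3.12%, against 10.8%) and 22 did not pass against the regular diet, with a median change of -0.107 (0.000613 over all genes). The list was bright, with array means of 7.89 to 8.01 on regular arrays. Of all genes at a level of 7 to 8, 23.6% were lower, with a median change of -0.0591. At 8 or more these were 50.4% and -0.193. The porins Vdac1 (-0.49, SE 0.10, limma adjusted p = 0.000817) and Vdac3 (-0.50, SE 0.07, limma adjusted p = 1.06e-05), through which metabolites cross the outer mitochondrial membrane, were lower and Vdac2 was at -0.01. Lower too were Atf4, which drives amino acid carrier genes under starvation (-0.31, SE 0.06, limma adjusted p = 0.000329), Myc (-0.26, SE 0.07), Nfe2l2 (-0.44, SE 0.10), the lysosomal nutrient-sensing genes Lamtor1 (-0.35) and Rraga (-0.32), and Txnip, which removes glucose carriers from the surface (-0.28, SE 0.08). Arrdc4, a relative of Txnip, was higher (0.25, SE 0.06). Between the deprived and regular diets 0 of the 32 passed in limma (5 had an unadjusted p below 0.05), with Atf4 at 0.19 (SE 0.06, limma adjusted p = 0.115). The mitochondrial pyruvate carrier genes Mpc1 and Mpc2, which lie outside the SLC naming, were at 0.10 and -0.22 and did not pass.

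Slc4a1 and Slc11a1 were looked up as carriers known from other cells, and they do not stand for all such carriers. Slc4a1 is the anion exchanger of red blood cells. It was at 5.17 to 5.31 on deprived, 5.09 to 5.27 on regular and 5.19 to 5.58 on supplemented arrays. The phagocyte metal carrier Slc11a1 was at 4.95 to 5.23, 4.92 to 5.09 and 5.07 to 5.43. Both were below the level filter and not tested, as was the iron exporter Slc40a1.

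Windows of 300 bases around the start were at hand for 257 of the 315 carriers, 194 of them tested, and for 9012 of all tested genes. The median number of CG pairs was 9 in the windows of 27 higher carriers and 22.5 in those of 18 lower carriers, against 18.5 in all tested carriers. All higher and all lower genes of the comparison had medians of 13 and 22. Signal level, which also went with the direction of change, was not held constant here. Of the sequences above, those of Slc25a3 and Slc25a5 are rich in CG pairs and that of Slc6a5 is poor, but that of Slc30a9, a carrier that rose, is rich and that of Slc25a20, which fell, is poor. The motif CACGTG, bound by Myc and related factors, was on either strand in 14.4% of the carriers' windows and 9.09% of all windows. It was in 5 of the 27 higher carriers (18.5%), in 1 of the 18 lower ones (5.56%) and in none of the 6 lower mitochondrial carriers. Over all genes the order was the other way, with 7.78% of higher and 11.2% of lower genes. CCGGAAGT, an ETS factor motif, was in 2.58% against 7.53%, with matches in Slc25a20 (plus strand of the gene) and Slc30a9 (minus strand). The motif GCGCATGC was in 3.61% against 4.65% and TGATGCAA in 0.515% against 0.621%. A direct repeat with 3 bases between its arms, each being AGGTCA, or its near form AGTTCA, or else GGGTCA, or finally the form GGTTCA, the form bound by the vitamin D receptor, was in 0 of 194 carrier windows and 7 of 9012 in all (0.0777%). The motifs were searched on both strands, and a match or its lack in these windows is a description of the sequence.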

How the data were processed

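The authors deposited 1 table of log2 values for 29214 transcript clusters on 17 arrays. The submitters' processing notes name RMA (background correction, quantile normalization of probes and summarization) and Partek 6.0. The table does not name its log base, and log2 is inferred from how high its values reach. No source used here gives the genome build. Arrays have no read depth, so their number limits the precision.

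The platform annotation gave 15310 clusters 1 symbol and 323 several, and did not list 13581. Of the 323 with several, 3 hold an Slc symbol and were left out. Of those with 1 symbol, 15279 were found in RefSeq by Entrez identifier, and no carrier changed its symbol. The filter kept genes with a mean of at least 5.321. All 10879 genes were fitted in 1 linear model with the 3 diets, using limma 3.58.1 in R 4.3.3 (14 residual and 8.19 prior degrees of freedom) and adjusted with Benjamini-Hochberg over all genes. It was tested on simulated data. Changes are differences of mean log2 values.

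The carriers, 12 families, partner list and marker lists (CD4 T, B, macrophage, red blood, stromal, CD8 T and NK cells) were chosen with earlier results of these data known. Genes were named by rule: a fixed list of T cell carriers, the 8 largest rises and falls past the threshold per contrast, up to 3 per family with the smallest p against the regular diet, and called partners. Others, such as Slc36a4, Slc38a3, Slc6a17, Slc5a2, Slc13a4, Slc22a23, Slc30a6 and Slc39a4, were named after their values were seen, to complete a count.

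No 2 of the 136 array pairs held identical values (r of 0.9773 to 0.9954). Alternatives were quantile normalization, cyclic loess, median centring, other level filters, all clusters tested, a variance trend, array spread as a covariate, a replicate block, fits of only 2 diets, each array left out, and supplemented replicates 2 and 5 left out together.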

Additional observations from a re-analysis of the deposited data

Results flagged for a closer look

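In 4 of 162 groups of arrays checked, 1 array stood apart from the rest of its diet by Dixon's test, which marks about 1 group in 20 by chance. Slc12a2, the sodium, potassium and chloride cotransporter, was at 7.69 on supplemented replicate 3 and at 6.94 to 7.17 on the other supplemented arrays. The lactate exporter Slc16a3 was at 6.38 on deprived replicate 6, against 6.12 to 6.18 on the other deprived arrays. The glutamine carrier Slc1a5 was at 7.26 on the same array, against 7.51 to 7.61. Slc35e4, an orphan relative of the nucleotide sugar carriers, was at 6.40 on regular replicate 6, against 6.26 to 6.31.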

How the results depend on the processing

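Between the supplemented and regular diets, 54 carriers passed (35 higher, 19 lower). The count was 35 (18 higher) after quantile normalization, 32 (15 higher) after cyclic loess, 28 (10 higher) with the dimmest 50% of genes left out and 24 (13 higher, 11 lower) without supplemented replicates 2 and 5, and centring gave 7 higher and 33 lower. Between the supplemented and deprived diets, 75 passed (49 higher, 26 lower). The count was 49 (30 higher) after quantile normalization, 48 (28 higher) after loess, 38 (13 higher) with the dimmest 50% of genes left out and 47 (27 higher) without supplemented replicates 2 and 5, and centring gave 10 higher and 47 lower. Between the deprived and regular diets the 1 call became 0 after quantile normalization or loess and 3 with only the 2 diets fitted. With array spread as a covariate 0 carriers passed in each contrast (limma, 25, 32 and 32 with an unadjusted p below 0.05 for supplemented against regular, deprived against regular and supplemented against deprived). The cause of these shifts was not tested.

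Leaving out 1 array at a time gave 37 to 62 carriers for supplemented against regular (22 to 41 higher, 14 to 21 lower), 61 to 88 for supplemented against deprived (39 to 61 higher, 22 to 28 lower) and 0 to 2 for deprived against regular. With the replicate number as a block the counts were 57 (36 higher, 21 lower), 83 (57 higher, 26 lower) and 1. Whether the numbers pair the samples is not stated. In 4 of 16 same-numbered pairs the deviations correlated above 0.1 (-0.207 to 0.195 over the 16). Pairs with different numbers were not correlated for comparison, so these values do not decide it.

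Of the 83 calls of named genes, 49 passed with the same sign after quantile normalization, 46 after loess, 56 after centring, 82 with the replicate block and 81 without a level filter, and none changed sign under these. With the spread covariate 29 changed sign and the other 54 no longer passed. The changes that turned were, for supplemented against regular, Slc16a3 (-0.0114), Slc17a2 (-0.0174), Slc25a24 (0.264), Slc25a34 (-0.0134), Slc25a41 (-0.0489), Slc31a1 (0.156), Slc33a1 (0.271), Slc39a6 (0.217), Slc7a4 (-0.133) and Slc9a3 (-0.124), and for supplemented against deprived, Slc10a6 (-0.000306), Slc12a7 (0.295), Slc17a2 (-0.00778), Slc25a10 (-0.0583), Slc25a11 (0.294), Slc25a24 (0.0223), Slc25a41 (-0.167), Slc28a3 (-0.271), Slc2a10 (-0.178), Slc30a10 (-0.0669), Slc31a1 (0.271), Slc33a1 (0.473), Slc35a3 (0.227), Slc38a1 (0.39), Slc38a2 (0.0733), Slc39a6 (0.204), Slc45a3 (-0.0723), Slc7a4 (-0.163) and Slc9a3 (-0.0838). Signals near the filter, at a log2 level of 5.321, limit what can be said of the dim carriers.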
